A study of Homo sapiens with 6 samples.

Results

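The unfolded protein and ATF4 stress response was followed as a set of 34 named genes in Capan-1 cells, a long-established line from a human pancreatic carcinoma, with every array probe set annotated to exactly 1 of them taken. Of the 34 genes, 33 had such probe sets, 73 in all, out of 19775 genes on the array. SYVN1, the ubiquitin ligase HRD1, shared its probe set with a microRNA gene and is not described. All 33 passed the filter on low values, which asks for a log2 level of 4 or more in 3 or more samples, with 64 of their probe sets. The p16 group held 3 samples, numbered V1 to V3, of cells transfected with a full-length p16 (CDKN2A) cDNA driven by the cytomegalovirus promoter in a plasmid that gives neomycin resistance. They were compared with 3 samples of mock-transfected cells that carry the same numbers. Per the labels all cells were grown with 15% fetal calf serum, and selection used hygromycin at 0.1 mg/ml and G418 at 1 mg/ml. The labels do not say what plasmid the mock cells received, whether a transfectant was 1 clone, or whether samples were grown apart, and the p-values therefore rest on a spread between arrays that may be technical.

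Proteins that enter the endoplasmic reticulum fold there with the help of chaperones such as BiP (HSPA5) and disulfide isomerases. When unfolded protein builds up, a set of membrane sensors responds: ATF6 is cut to release a transcription factor, IRE1 (ERN1) splices the XBP1 mRNA, and PERK (EIF2AK3) phosphorylates the translation factor eIF2alpha. The last lowers protein synthesis while the mRNA of the transcription factor ATF4 is translated more, and other eIF2alpha kinases that sense amino acid shortage, haem or viral RNA lead to ATF4 as well. ATF4 in turn drives amino acid transport, serine and asparagine synthesis, tRNA charging and genes such as TRIB3, CHAC1 and DDIT3. Secretory cells of the pancreas are known for a high basal load on this system. Splicing of XBP1, cleavage of ATF6 and translation of ATF4 act after the mRNA is made and are not measured by these mRNA levels.

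Sequences before the start sites of these genes show which members carry the letters of known stress elements. RefSeq promoters (assembly GRCh38.p14, 250 bases before to 50 after the first listed start) were at hand for 32 of the 34 genes, all but PSPH and SHMT2. Both strands were searched for the ER stress element, CCAAT and CCACG with 9 bases between them, which ATF6 is known to bind together with NF-Y. The second ER stress element is ATTGG and CCACG with 1 base between them, the C/EBP-ATF response element used by ATF4 is TGATG, any base and AA, and TGACGTG was the last motif. The first element was in 5 of 32 member promoters and in 0.0806% of all 27305 promoters, and the second in 3 of 32 and in 0.0549%. Either of these elements stood in 8 member promoters, 6 of them of chaperones and folding enzymes, against 0.136% of all promoters. The C/EBP-ATF element was in 3 of 32 member promoters and in 3.67% of all, and TGACGTG in 1 of 32 and in 2.00%, overlapping a second ER stress element in HYOU1. In 22 of the 32 member promoters no motif was found, which says nothing of sequence outside this window. A match describes letters and not a bound site. The motifs were chosen as known elements of stress genes such as these. Their higher shares among members are therefore no independent evidence. The stretches around the matches are printed 5′ to 3′ on the gene's strand, with the matched letters in capitals and 20 bases on each side.
Genes with an ER stress element, chaperones first:
HSPA5, chr9:125241371-125241429, minus strand: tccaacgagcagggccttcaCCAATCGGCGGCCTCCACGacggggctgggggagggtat
HSP90B1, chr12:103930196-103930359, plus strand: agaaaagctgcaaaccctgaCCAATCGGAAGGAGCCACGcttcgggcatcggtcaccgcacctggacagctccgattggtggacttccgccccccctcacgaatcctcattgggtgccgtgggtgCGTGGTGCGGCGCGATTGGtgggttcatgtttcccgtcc
CALR, chr19:12938364-12938422, plus strand: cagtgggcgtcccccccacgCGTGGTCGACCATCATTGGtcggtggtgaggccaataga
CANX, chr5:179698758-179698816, plus strand: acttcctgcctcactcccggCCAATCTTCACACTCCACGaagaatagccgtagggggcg
XBP1, chr22:28800583-28800641, minus strand: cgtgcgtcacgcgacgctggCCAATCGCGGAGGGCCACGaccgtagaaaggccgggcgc
Genes with the second ER stress element, where HERPUD1 also has a C/EBP-ATF element and HYOU1 also has TGACGTG:
HERPUD1, chr16:56931946-56932055, plus strand: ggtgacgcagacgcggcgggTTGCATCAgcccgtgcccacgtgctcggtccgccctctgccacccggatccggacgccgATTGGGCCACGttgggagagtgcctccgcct
HYOU1, chr11:119057254-119057413, minus strand: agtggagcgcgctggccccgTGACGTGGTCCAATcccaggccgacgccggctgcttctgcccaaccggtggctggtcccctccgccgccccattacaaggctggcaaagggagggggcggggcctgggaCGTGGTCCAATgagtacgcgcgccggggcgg
SDF2L1, chr22:21642094-21642144, plus strand: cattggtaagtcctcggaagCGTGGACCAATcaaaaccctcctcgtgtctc
Genes with a C/EBP-ATF element alone, an asparagine synthetase and a glutathione-degrading enzyme:
ASNS, chr7:97872449-97872496, minus strand: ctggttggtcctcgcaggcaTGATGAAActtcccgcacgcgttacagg
CHAC1, chr15:40953242-40953289, plus strand: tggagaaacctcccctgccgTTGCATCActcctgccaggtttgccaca

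The values are log2 expression levels as the authors deposited them, 1 array per sample, and the number of arrays limits the precision. Along the second principal component, which held 17.9% of the variance, the V1 sample of each group stood apart from V2 and V3. In 51 of the 64 member probe sets both V1 samples lay on the same side of their group's V2 and V3 mean. No such count was made over all tested probe sets, where the V1 deviations of the groups correlated at 0.81. The side could differ between probe sets of 1 gene. For HSP90B1 the p16 and mock V1 samples lay at -1.15 and -0.80 from that mean on the brightest probe set. On its other probe set they lay at 1.43 and 1.06. CDKN2A itself averaged 12.60 ± 0.45 in p16 cells and 6.01 ± 0.41 in mock cells (SD, n = 3 each), a check on the labels. GAPDH averaged 15.82 ± 0.21 in p16 cells and 15.68 ± 0.12 in mock cells (limma adjusted p = 0.61), and ACTB 15.94 ± 0.04 in p16 cells and 15.79 ± 0.11 in mock cells (adjusted p = 0.48). All 6 markers of carcinoma epithelial cells, among them EPCAM and KRT8, were at 4 or above in every sample, with a mean level of 12.33 to 12.56 in the p16 samples and 14.18 to 14.50 in the mock samples, and 4 of the 6 were called lower. All 6 leukocyte markers on the array, of 8 listed, and all 5 endothelial markers stayed under 4 throughout. Of 6 fibroblast markers 3 (COL3A1, DCN and COL1A2) lay under 4 in every sample, while the mean level of the 6 was 4.77 to 5.09 in the p16 samples and 3.48 to 3.58 in the mock samples, through LUM and PDGFRB. COL1A1 lay above 4 in every sample, at 7.45 to 7.92 in the p16 samples and 7.66 to 8.35 in the mock samples. The part of these shifts in the results that follow was not tested.

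The module's genes did not all go in 1 direction. ATF4 mRNA, the ATF4 effectors TRIB3, CHAC1 and PPP1R15A and the enzymes PHGDH, PSAT1 and ASNS were higher in p16 cells, and so was EDEM1, while CEBPB, the PERK gene EIF2AK3, CREB3L2, HERPUD1 and SDF2L1 were lower, and the abundant chaperones were mostly not called. In all, 8 of 33 genes were called higher and 5 lower in p16 cells, where a call is a Benjamini-Hochberg adjusted p under 0.05 in limma's moderated test over all probe sets. Of the 11658 genes tested on the array 42.0% were called, 19.5% higher and 22.5% lower, so the 39.4% of module genes called lies near the background. Each gene is represented by the brightest of its tested probe sets, by the mean over the 6 samples. The median log2 difference of the 33 genes was 0.12, against -0.03 over all genes tested, and the median absolute difference was 0.81 against 0.80. The groups did not overlap in 21 of the 33 genes, 13 with p16 above mock and 8 with p16 below, where 56.4% of all genes did not overlap, 27.3% with p16 above and 29.1% with p16 below. No module gene reached the floor of the array in any sample on its brightest probe set, the levels lying between 5.65 and 15.06, so the differences are not bounds.

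**Figure D1:**
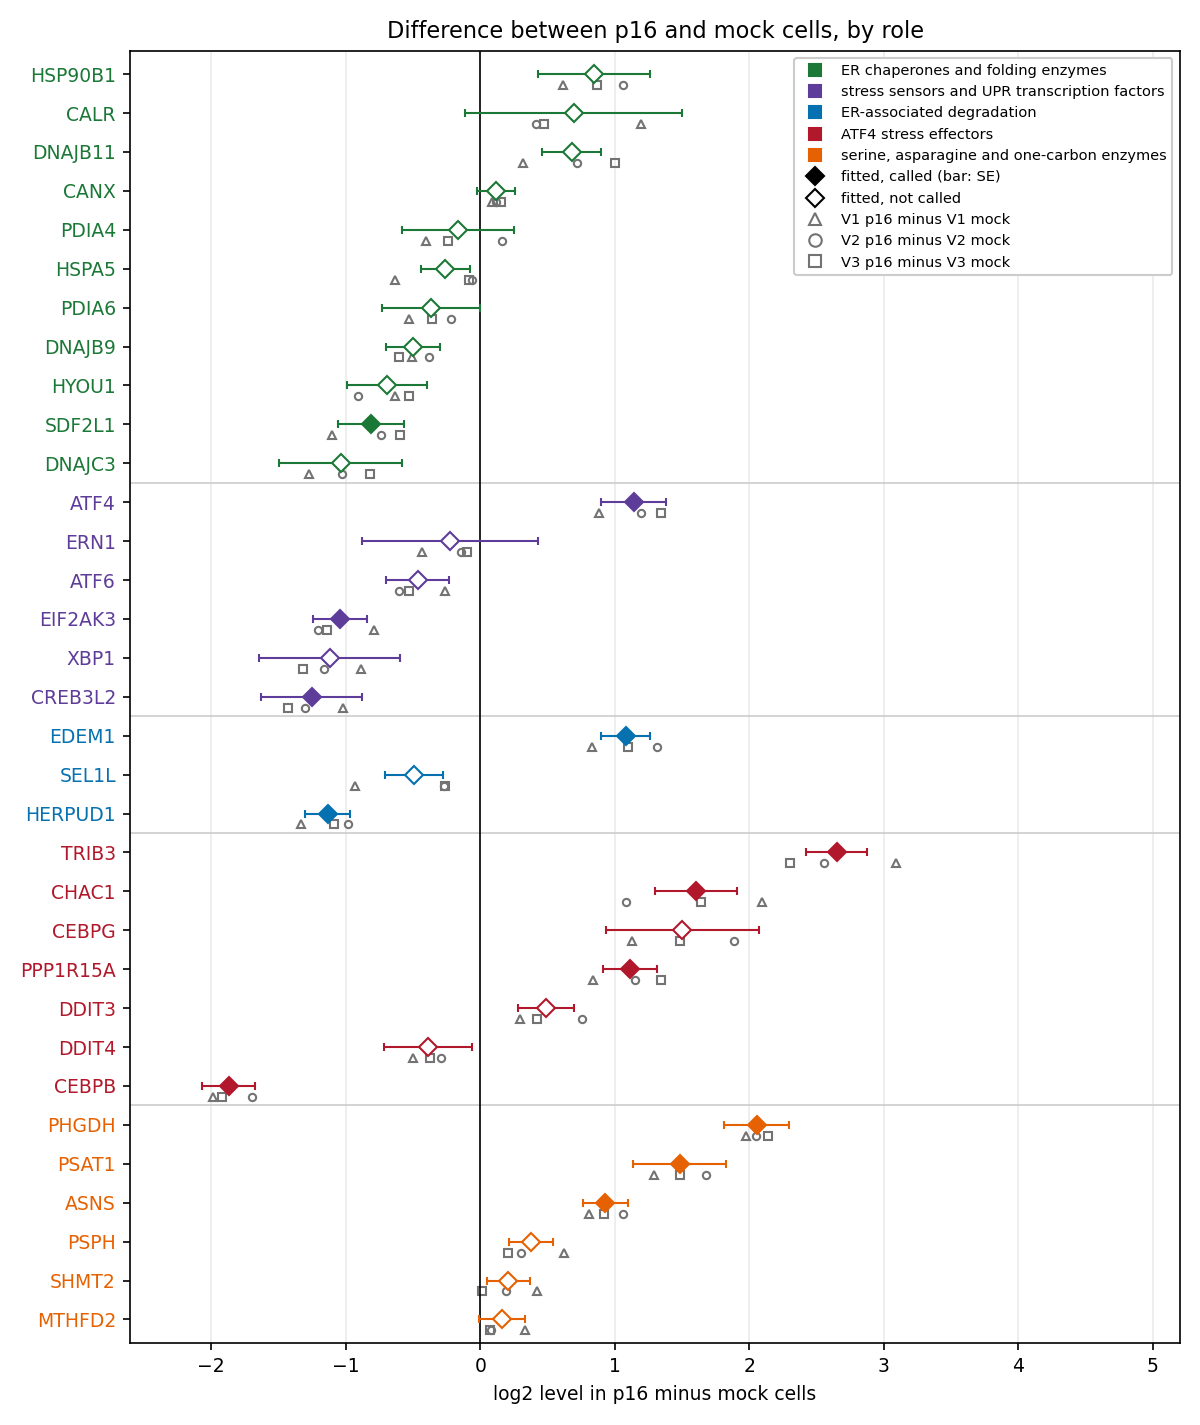
Difference in log2 level between p16 and mock cells for the 33 genes, grouped by role from the chaperones at the top to the serine, asparagine and one-carbon enzymes at the bottom. Diamonds are the fitted difference with its standard error, filled where called, and small symbols below them are the difference within each V number. All 6 enzymes at the bottom lie to the right of 0, led by PHGDH at 2.06, while 7 of the 11 chaperones lie to the left.

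With the V numbers entered as a replicate block, 24 of the 33 genes were called, 13 higher and 11 lower, against 67.9% of all genes, 32.4% higher and 35.5% lower. The block, which compares samples of the same number, is given with a gene where it changes the call. The difference between the p16 and the mock sample of the same number had the same sign for V1, V2 and V3 in 32 of the 33 genes, PDIA4 being the exception, and in 84.9% of all genes tested. Without both V1 samples, 11 genes were called higher and 7 lower, where 54.5% of all genes were called, 26.5% higher and 27.9% lower.

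Chaperones and folding enzymes of the endoplasmic reticulum were mostly not called. Of 11, SDF2L1 was called lower and none higher by limma (1 higher and 2 lower at an unadjusted p under 0.05). Their median difference was -0.26. Over all genes 19.5% were higher and 22.5% lower. BiP, the HSP70 chaperone encoded by HSPA5 and the brightest gene of the module, read 14.42, 14.78 and 14.79 in the p16 samples, against 15.06, 14.84 and 14.88 in the mock samples on its main probe set. The groups did not overlap there, but the difference was -0.26 (SE 0.18, limma adjusted p = 0.32). A second, dimmer HSPA5 probe set read 7.98, 7.07 and 7.52 in the p16 samples, against 9.82, 8.94 and 9.71 in the mock samples and was called lower by 1.97 on the log2 scale (adjusted p = 0.007). SDF2L1, which works with the HSP40 protein DNAJB11, read 8.62, 9.26 and 9.36 in the p16 samples, against 9.72, 10.00 and 9.96 in the mock samples. Every p16 sample lay under every mock sample, a difference of -0.81 (SE 0.25, limma adjusted p = 0.047). That call ended on leaving out any 1 of the 6 samples (adjusted p = 0.063 to 0.14).

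The HSP90 chaperone HSP90B1 (GRP94) and the HSP40 co-chaperone DNAJB11 pointed the other way. HSP90B1 read 12.16, 13.32 and 13.30 in the p16 samples, against 11.55, 12.26 and 12.44 in the mock samples on a probe set of the kind marked as prone to pick up related sequences. The p16 V1 sample lay under the mock V3 sample, and the difference of 0.85 was not called (limma adjusted p = 0.17), but it was with the replicate block (adjusted p = 0.0061), without both V1 samples (adjusted p = 0.0079) and without the p16 V1 sample alone (adjusted p = 0.042). DNAJB11 averaged 12.48 ± 0.18 in p16 cells and 11.80 ± 0.31 in mock cells (SD, n = 3 each), with no overlap, at an adjusted p of 0.059 without the block and 0.024 with it. Without both V1 samples its adjusted p was 0.042. Of the lectin-type chaperones, calreticulin (CALR) had a difference of 0.69 (adjusted p = 0.55, and 0.036 with the block), and its membrane relative calnexin (CANX) one of 0.12 (adjusted p = 0.57, and 0.38 with the block). CALR read 10.97, 12.29 and 12.79 in the p16 samples, against 9.78, 11.88 and 12.32 in the mock samples. Its probe set was of the same kind as that of HSP90B1. The V1 samples lay far under V2 and V3 in both groups, with a positive difference within each V number. Without both V1 samples the difference was 0.44 (adjusted p = 0.23), while without the mock V1 sample alone its sign turned (to -0.08).

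The remaining chaperones lay lower in p16 cells without a call. DNAJC3 (p58IPK), a co-chaperone that also restrains PERK, averaged 11.38 ± 0.54 in p16 cells and 12.42 ± 0.73 in mock cells (SD, n = 3 each) and differed by -1.04, at an adjusted p of 0.13 and, with the block, 0.0033. Leaving out both V1 samples gave 0.0086. HYOU1, the nucleotide exchange factor GRP170, differed by -0.69 (adjusted p = 0.12, and 0.0099 with the block), and DNAJB9 (ERdj4), a co-chaperone of BiP, by -0.50 (adjusted p = 0.11, and 0.018 with the block). The disulfide isomerases PDIA6 and PDIA4 differed by -0.37 and -0.16 on their brightest probe sets, not called with or without the block. That PDIA6 probe set was also of the kind prone to pick up related sequences. A PDIA6 probe set not of this kind differed by -0.51 and was called lower with the block (limma adjusted p = 0.02). With the block, 3 chaperones were called higher and 4 lower, where 32.4% of all genes were higher and 35.5% lower. The 8 genes whose promoters held either ER stress element, printed above, had a median difference of -0.48: HERPUD1 and SDF2L1 were called lower, none higher (none higher at an unadjusted p under 0.05), and the other 6 were not called (limma; 19.5% of all genes were higher and 22.5% lower). With the block 2 of the 8 were called higher, HSP90B1 and CALR, and 4 lower, with HYOU1 and XBP1 added. The block shares over all genes were 32.4% and 35.5%.

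**Figure D2:**
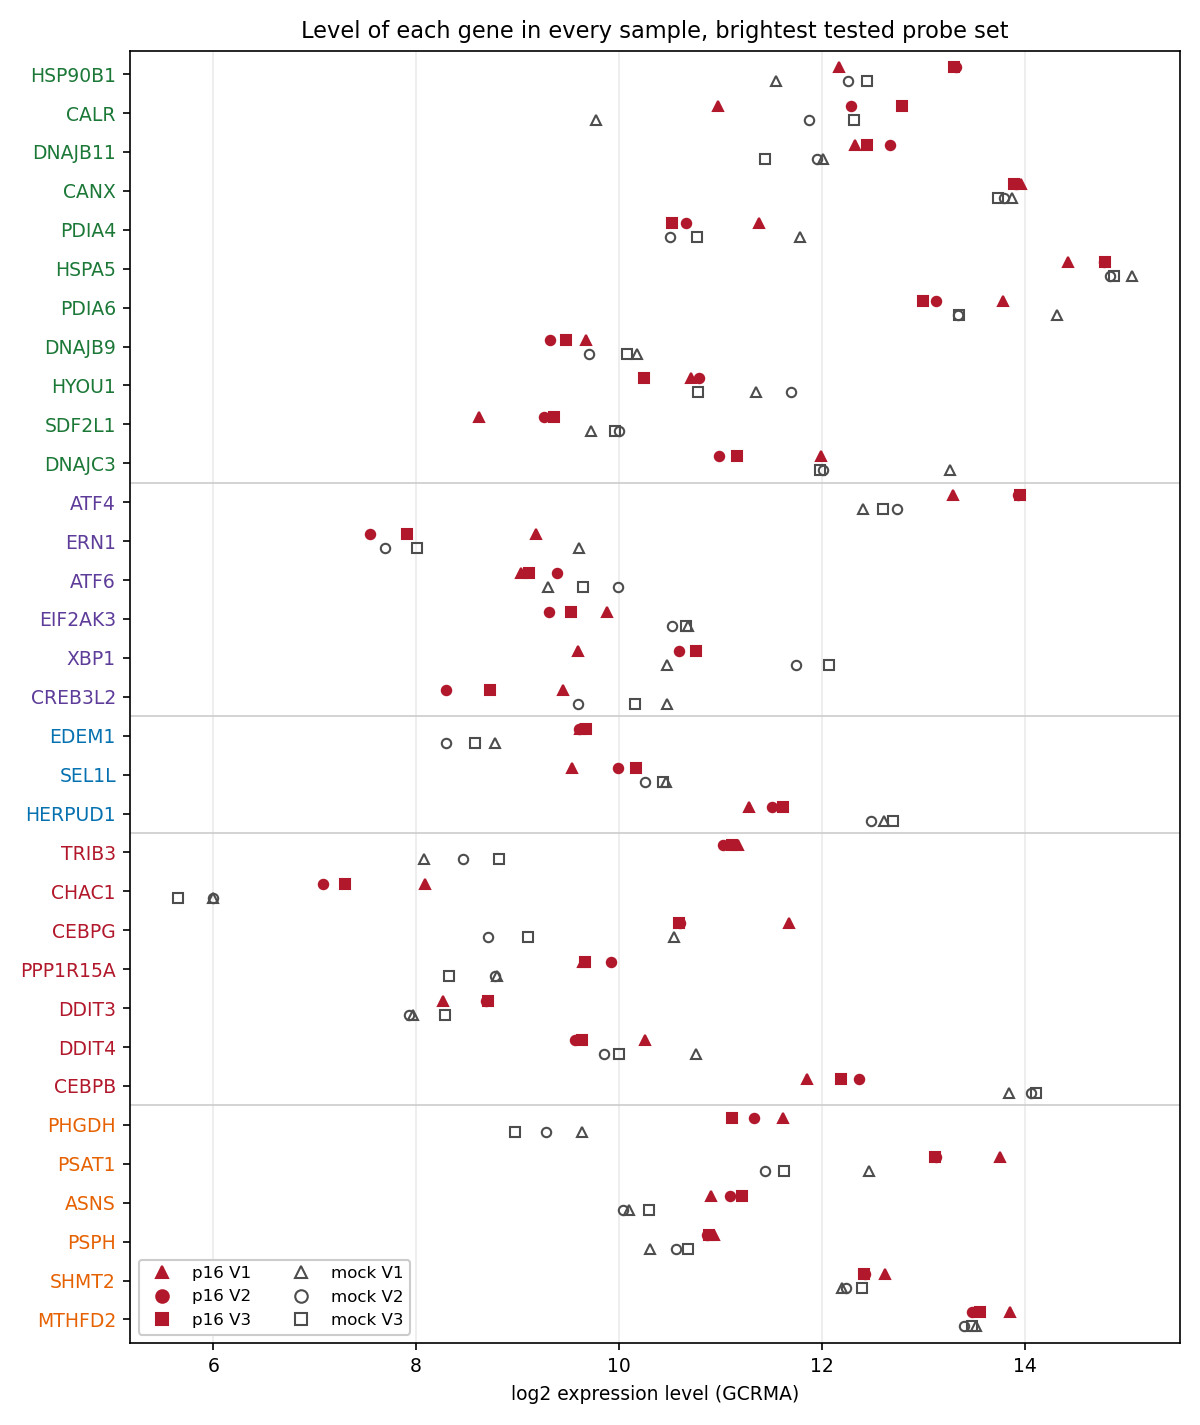
Log2 expression level of the 33 genes in every sample, on the brightest tested probe set of each, with p16 samples as filled symbols above the open symbols of the mock samples. TRIB3 sits between 11.02 and 11.17 in the p16 samples and between 8.08 and 8.82 in the mock samples, while triangles, the V1 samples, lie to the same side in both groups for genes such as CALR, XBP1 and PDIA6.

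Sensors and transcription factors split, with ATF4 higher and 2 others lower. ATF4, the factor at the centre of the amino acid response, read 13.29, 13.93 and 13.95 in the p16 samples, against 12.41, 12.74 and 12.60 in the mock samples. All p16 samples lay above all mock samples, by 1.14 (SE 0.24) or 2.2-fold (limma adjusted p = 0.014). Without mock V3, p16 V2 or p16 V3 its adjusted p was 0.056, 0.062 and 0.063. EIF2AK3, the PERK kinase, read 9.88, 9.31 and 9.52 in the p16 samples, against 10.68, 10.52 and 10.66 in the mock samples. It fell by 1.04 on the log2 scale, or 2.06-fold lower (SE 0.20, adjusted p = 0.0099), with the groups apart. CREB3L2, a membrane-bound factor of the ATF6 type, read 9.45, 8.30 and 8.73 in the p16 samples, against 10.47, 9.60 and 10.16 in the mock samples and fell by 1.25 (adjusted p = 0.046). Its groups did not overlap, but the call ended without any 1 sample other than p16 V1 (adjusted p = 0.024 to 0.14 over the 6 samples left out in turn).

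The other sensor and factor genes were lower in p16 cells by value without a call. XBP1, the target of IRE1 splicing, read 9.59, 10.59 and 10.76 in the p16 samples, against 10.48, 11.75 and 12.07 in the mock samples. The V1 sample was the lowest of each group, the groups overlapped, and the difference of -1.12 had an adjusted p of 0.15 without the block and 0.0026 with it, and of 0.0087 without both V1 samples. Without the mock V1 sample alone it was 0.041. ATF6 differed by -0.46 on its brightest probe set (adjusted p = 0.18, and 0.03 with the block), and 3 dimmer ones differed by -1.63, -1.16 and -2.06, of which the first was called lower (adjusted p = 0.012). With the block all 3 dimmer ones were called lower (limma adjusted p = 0.00053, 0.0099 and 0.0003). ERN1, the IRE1 kinase and nuclease, averaged 8.21 ± 0.86 in p16 cells and 8.44 ± 1.03 in mock cells (SD, n = 3 each; adjusted p = 0.83), with the V1 sample the highest of each group, and the spread within each group was larger than the difference of -0.23. In all 1 of 6 was called higher and 2 lower, or 1 and 4 with the block, with a median of -0.75. Among all genes tested 19.5% were higher and 22.5% lower, or 32.4% and 35.5% with the block.

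The 2 degradation genes called went in opposite directions. EDEM1, a mannosidase-related protein that hands misfolded glycoproteins to degradation, read 9.61, 9.61 and 9.68 in the p16 samples, against 8.78, 8.29 and 8.58 in the mock samples. The p16 samples lay within 0.1 of each other and above every mock sample, 2.12-fold higher (log2 difference 1.08, SE 0.18, limma adjusted p = 0.0061). HERPUD1, a membrane scaffold of the HRD1 ligase, read 11.28, 11.50 and 11.62 in the p16 samples, against 12.62, 12.48 and 12.70 in the mock samples. It was 2.19-fold lower in p16 cells, with no overlap (log2 difference -1.13, SE 0.17, adjusted p = 0.0039). HERPUD1 was the gene whose promoter, printed above, held both a second ER stress element and a C/EBP-ATF element. SEL1L, the adaptor of HRD1, differed by -0.49 (adjusted p = 0.13), and 1 of its 3 tested probe sets was called lower.

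TRIB3, an ATF4 effector, had the largest difference of the 33 genes. This pseudokinase, induced by ATF4 and able to bind it, read 11.17, 11.02 and 11.12 in the p16 samples, against 8.08, 8.46 and 8.82 in the mock samples. The groups were more than 2 log2 units apart at their nearest samples, a rise of 2.65 (SE 0.23) or 6.27-fold (limma adjusted p = 0.00047), and its second tested probe set gave 2.64 (adjusted p = 0.034). CHAC1, which degrades glutathione, read 8.09, 7.08 and 7.30 in the p16 samples, against 5.99, 5.999 and 5.65 in the mock samples. It was the dimmest gene of the module and rose 3.05-fold (log2 difference 1.61, SE 0.31, adjusted p = 0.0096). PPP1R15A (GADD34), which brings a phosphatase to eIF2alpha, read 9.64, 9.92 and 9.67 in the p16 samples, against 8.80, 8.77 and 8.32 in the mock samples and rose by 1.11 (adjusted p = 0.0082), and its second probe set rose by 1.52. In each of these genes all p16 samples lay above all mock samples, and the calls held in every alternative run.

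CEBPB, a bZIP factor that pairs with ATF4, moved against them. It read 11.86, 12.36 and 12.19 in the p16 samples, against 13.84, 14.06 and 14.11 in the mock samples, 3.65-fold lower in p16 cells with no overlap (log2 difference -1.87, SE 0.20, limma adjusted p = 0.001). Its relative CEBPG, another partner of ATF4, read 11.67, 10.60 and 10.59 in the p16 samples, against 10.54, 8.71 and 9.10 in the mock samples. The mock V1 sample came within 0.1 of the lowest p16 sample, and the difference of 1.50 was called with the block (adjusted p = 0.0025) and not without it (adjusted p = 0.09). Without the mock V1 sample, and without both V1 samples, its adjusted p was 0.021 and 0.005. DDIT3 (CHOP), the stress-induced factor often used as a readout of PERK and ATF4, read 8.26, 8.69 and 8.70 in the p16 samples, against 7.97, 7.93 and 8.29 in the mock samples. The p16 V1 and mock V3 samples overlapped, and the difference was 0.49 (adjusted p = 0.12, and 0.036 with the block). DDIT4 (REDD1), an inhibitor of mTORC1, differed by -0.39 (adjusted p = 0.41, and 0.037 with the block). Of the 7 effectors 3 were called higher and 1 lower, or 5 and 2 with the block, with a median of 1.11. Over all genes 19.5% were higher and 22.5% lower, or 32.4% and 35.5% with the block.

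All 6 serine, asparagine and one-carbon enzymes had a positive difference, and 3 were called higher. PHGDH, the first enzyme of serine synthesis, read 11.61, 11.33 and 11.11 in the p16 samples, against 9.63, 9.28 and 8.98 in the mock samples. The difference within a V number was 1.98, 2.05 and 2.14 for V1 to V3, and the gene rose 4.16-fold (SE 0.24 on a log2 difference of 2.06, limma adjusted p = 0.0016). PSAT1, the aminotransferase of the next step, read 13.75, 13.12 and 13.11 in the p16 samples, against 12.46, 11.44 and 11.63 in the mock samples and rose by 1.48 (adjusted p = 0.02), with its second probe set at 1.71. The groups were apart, but the call ended without any 1 sample other than mock V1 (adjusted p = 0.0093 to 0.079 over the 6 samples left out in turn). ASNS, asparagine synthetase, read 10.91, 11.10 and 11.21 in the p16 samples, against 10.10, 10.03 and 10.29 in the mock samples and rose 1.91-fold (log2 difference 0.93, SE 0.17, adjusted p = 0.0082).

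The last step of serine synthesis and the mitochondrial folate enzymes were not called. PSPH, the phosphatase that ends the route, averaged 10.89 ± 0.04 in p16 cells and 10.52 ± 0.19 in mock cells (SD, n = 3 each). All p16 samples lay above all mock samples, but the difference of 0.38 was not called (limma adjusted p = 0.13). SHMT2, which passes a carbon from serine to folate in mitochondria, differed by 0.21 (adjusted p = 0.35). MTHFD2, the dehydrogenase that follows it, differed by 0.16 (adjusted p = 0.51). Dimmer probe sets differed by 0.27 and 1.07 for SHMT2 and by 0.65 for MTHFD2, none called without the block. With the block the SHMT2 probe set at 1.07 was called higher (limma adjusted p = 0.0035). The dimmest PSPH probe set, of the kind prone to pick up related sequences, differed by -0.40 and was called lower with the block (limma adjusted p = 0.037). Another PSPH probe set differed by 0.55 and was not called. On the brightest probe sets none of the 6 was called lower by limma, with none lower at an unadjusted p under 0.05 either. The block left the count at 3 on the brightest probe sets. Shares over all genes were 19.5% higher and 22.5% lower, or 32.4% and 35.5% with the block. The 13 effectors and enzymes together had a median of 0.93, and the 20 chaperones, sensors and degradation genes a median of -0.42. The difference between these groups was not tested.

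Probe sets of 1 gene mostly pointed the same way. Of 18 genes with more than 1 tested probe set, 4 had probe sets of both signs (CANX, PDIA4, ERN1 and PSPH), and no gene had probe sets called in opposite directions. Another 4 genes, HSPA5, CALR, ATF6 and SEL1L, were not called on their brightest probe set but were on a dimmer one. For CALR that was a rise of 1.28 (limma adjusted p = 0.042), on a probe set not marked as prone to pick up related sequences. It read 8.32, 9.57 and 8.71 in the p16 samples, against 7.24, 7.92 and 7.63 in the mock samples. Of the 73 probe sets 9 did not pass the filter, 6 of them under 4 in every sample, and they give no difference.

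**Figure D3:**
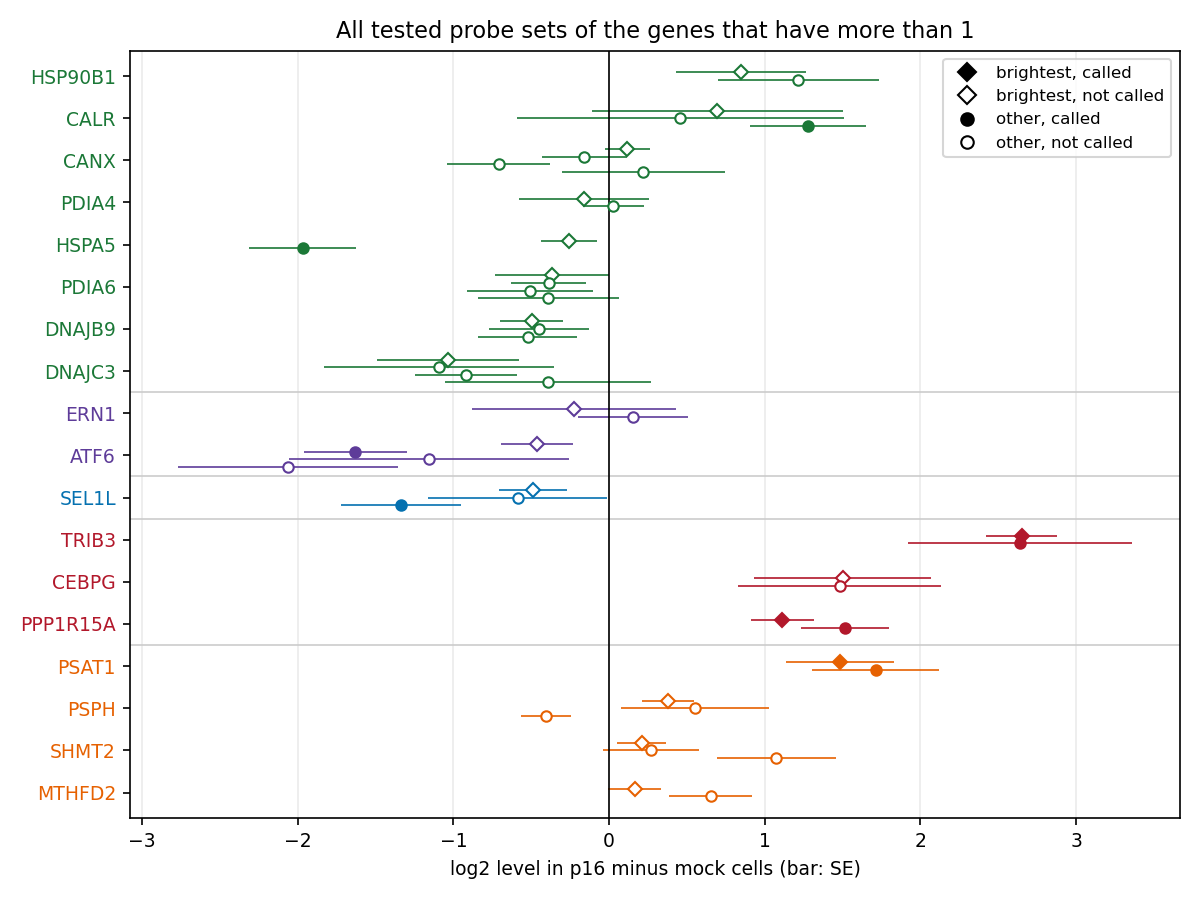
Difference in log2 level between p16 and mock cells for every tested probe set of the 18 genes with more than 1, with its standard error. Diamonds mark the brightest probe set and circles the others, filled where called. The dimmer HSPA5 probe set lies at -1.97, far from the brightest at -0.26, while both probe sets of TRIB3, PPP1R15A and PSAT1 were called higher.

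Other genes of the pathway, taken from lists that hold no module gene, were described by the same counts. Among ATF4-linked amino acid transporters 4 of 7 were called higher and none lower by limma (none lower at an unadjusted p under 0.05), with a median difference of 1.41. SLC7A11, the cystine importer, averaged 11.29 ± 0.53 in p16 cells and 7.50 ± 0.99 in mock cells (SD, n = 3 each), a rise of 3.80 (limma adjusted p = 0.0038). SLC7A5, the large neutral amino acid carrier, rose by 2.16 and SLC7A1, a carrier of cationic amino acids, by 1.57. Among aminoacyl-tRNA synthetases, which charge tRNAs, 5 of 15 were called higher and 1 lower, with a median of 0.53, and 9 and 3 with the block. VARS1, NARS1 and CARS1 led with 1.64, 1.56 and 1.33. In the list of other serine, proline and one-carbon enzymes 2 of 8 were called higher and 1 lower, or 3 and 4 with the block: the transsulfuration enzymes CTH and CBS rose by 2.38 and 1.99, and AMT, of the glycine cleavage system, differed by -1.32 (adjusted p = 0.032, and 0.03 to 0.1 with the samples left out in turn). These shares stand beside 19.5% higher and 22.5% lower over all genes, or 32.4% and 35.5% with the block.

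The remaining ATF4-linked stress genes held the extremes. Of 14 tested, 7 were called higher and 3 lower, with a median of 0.98. The shares over all genes were again 19.5% higher and 22.5% lower, or 32.4% and 35.5% with the block. The secreted glycoprotein STC2 read 9.39, 8.68 and 9.20 in the p16 samples, against 2.15, 2.16 and 2.14 in the mock samples, which all lay under 4, and was at least 34.1-fold higher (limma adjusted p = 1.4e-05; the bound sets values under 4 to 4). The lipoprotein receptor VLDLR, under 4 in 1 of the 3 mock samples, was at least 19.2-fold higher by the same bound. GDF15, a stress-induced cytokine, went the other way and lay under 4 in every p16 sample, at least 1064-fold lower (limma adjusted p = 5.5e-06). The mock samples of GDF15 read 13.87, 14.48 and 13.82. Among eIF2alpha kinases, phosphatases and translation factors 2 of 15 were called higher and 1 lower, or 3 and 3 with the block: EIF2B1, a subunit of the eIF2 exchange factor, rose by 1.21, PPP1R15B, the constitutive relative of PPP1R15A, by 1.08, and EIF2AK4 (GCN2), the kinase that senses uncharged tRNA, was lower (-0.82), with its 2 tested probe sets called in opposite directions.

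Genes of folding, translocation and degradation in the endoplasmic reticulum outside the module were called in 4 of 18, 3 of 15 and 6 of 13 cases. Those are 22.2%, 20% and 46.2%, where 42.0% of all genes were called, 19.5% higher and 22.5% lower. With the block 67.9% of all genes were called, 32.4% higher and 35.5% lower. Of 18 other folding genes 1 was called higher and 3 lower (5 and 6 with the block). KDELR3, a receptor that returns escaped chaperones, averaged 8.05 ± 0.11 in p16 cells and 12.78 ± 0.43 in mock cells (SD, n = 3 each), a fall of 4.73 (limma adjusted p = 7.4e-05), and CRELD2 and DNAJC1 fell by 1.07 and 0.84. Of 15 translocation genes 2 were called higher, SEC63 (1.33) and SSR2 (0.69), and SEC61B, of the translocation channel, was lower (-1.26), while 5 and 4 were called with the block. Of 13 other degradation genes 3 were called higher and 3 lower, with DERL1 at 1.38, EDEM2 at -1.32 and the mannosidase MAN1B1 at -2.22. Other regulators of the response had 2 of 10 lower and none higher (none higher at an unadjusted p under 0.05, limma), with MAP3K5 (ASK1), a kinase downstream of IRE1, at -5.64 and TMBIM6 at -1.09. Cytosolic and mitochondrial heat shock genes had 4 of 12 higher and none lower by limma (none lower at an unadjusted p under 0.05). HSPA4 led at 2.12, with DNAJA1 at 1.36 and HSPH1 at 1.18. On leaving out 1 sample the calls of AMT, CRELD2, DERL1, DNAJA1, DNAJC1, EIF2AK4, SEC63 and SSR2 ended in at least 4 of the 6 cases each, with adjusted p-values up to 0.14.

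**Figure D4:**
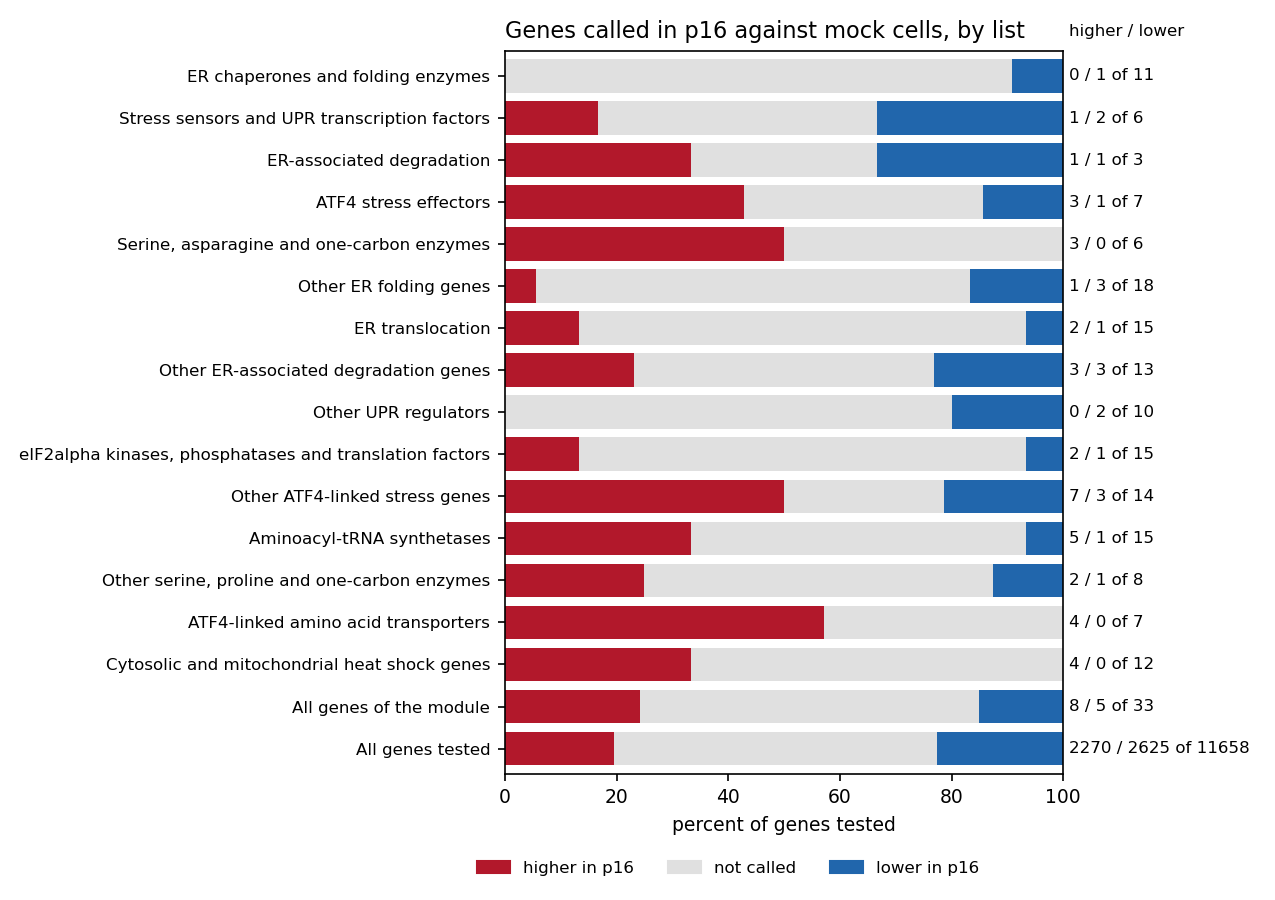
Percent of the tested genes of each list called higher in p16 cells (red), not called (grey) and called lower (blue), with the counts higher and lower of the number tested at the right. The first 5 bars are the roles within the module, the next 10 the other lists, and the last 2 the whole module and all genes tested, where 2270 were higher and 2625 lower.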

How the data were processed

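Affymetrix expression arrays of 3 p16 and 3 mock samples were analysed. The authors deposited log2 expression levels for 1 array per sample, made with GCRMA per the submitters' processing notes. GCRMA corrects background by probe sequence, which leaves undetected probe sets near a common low level, and the depth of an array is not a count. Of 54613 probe sets, 41091 were annotated to 1 gene and 24406 passed a filter of 4 or more in 3 or more samples. Gene symbols came from the platform annotation and were looked up by gene ID in a RefSeq gene table. It changed 0 symbols and held no entry for 54 probe sets.

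Levels were fitted with limma 3.58.1 (R 4.3.3), p16 minus mock, with no covariate. P-values were adjusted by the Benjamini-Hochberg method over all tested probe sets, with a threshold of 0.05. A gene took the value of the brightest of its tested probe sets. Tables, motif searches and figures were made in Python 3.11.15. The fit was tested on simulated data with 24406 probe sets.

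Named are all module genes, CDKN2A, GAPDH, ACTB and, from each other list, up to 3 called genes with the largest absolute change. The module's members and the other lists were chosen with earlier results of these data known, so their directions are no independent evidence. The V numbers come from the sample titles, which do not say what they stand for. Deviations of same-numbered samples from their group means correlated at 0.81, 0.75 and 0.67 over tested probe sets for V1, V2 and V3. All lay above the limit of 0.1, so the numbers were taken as pairing the samples. The block is given where it changes a call. Other pairs passed 0.1 too, p16 V2 with mock V3 at 0.42 and p16 V3 with mock V2 at 0.51. Pairs of V1 with V2 or V3 gave -0.62 to -0.74. That limit therefore cannot establish that V2 pairs with V2 and V3 with V3.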

Additional observations from a re-analysis of the deposited data

How the results depend on the processing

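Of the 13 module genes called, 9 were called in all 14 planned and added alternatives (EIF2AK3, HERPUD1, EDEM1, TRIB3, CHAC1, CEBPB, PPP1R15A, ASNS and PHGDH), and 29 of the 33 genes kept their sign in all of them. With the V numbers taken as a replicate block, the module had 13 genes higher and 11 lower in place of 8 and 5, and all genes tested 3780 higher and 4136 lower (7916 in all) in place of 2270 and 2625 (4895). Every call of a module gene made without the block was also made with it. The block moved the counts of 5 other lists by no more than 1.5 times, to 6 higher and 0 lower of 7 amino acid transporters, 6 and 0 of 12 heat shock genes, 8 and 4 of 14 other ATF4-linked stress genes, 4 and 4 of 13 other degradation genes and 0 and 3 of 10 other regulators. With the mean of a gene's probe sets in place of the brightest, 11 module genes were higher and 8 lower, the median difference was -0.037 in place of 0.12, and 5586 genes were called over the array. With no filter on low values 7 module genes were higher and 3 lower. Over the array 9.4% of the 19775 genes were then called higher and 10.9% lower. Leaving out 1 sample gave 2963 to 4292 genes called over the array (1119 to 2305 higher and 1420 to 2508 lower), and in the module 6 to 9 higher, 3 to 4 lower and a median of 0.05 to 0.17. Leaving out both V1 samples, an alternative chosen after seeing the data, gave 11 module genes higher and 7 lower. Over all genes 26.5% were then higher and 27.9% lower. The sign turned in CALR without mock V1 (-0.079, and up to 1.22 with other samples left out), in CANX with the probe set mean (-0.13), in ERN1 without mock V1 (0.36) and without p16 V2 (0.11, and down to -0.71), in PDIA4 without mock V1 (0.22) and without p16 V3 (0.0026, and down to -0.42), and in EIF2AK4 with the probe set mean (0.99, limma adjusted p = 0.0091). The calls of CREB3L2, PSAT1 and SDF2L1 ended with no filter, and that of SDF2L1 also with an intensity trend and with robust estimation. Of the named genes outside the module, AMT, CRELD2, DERL1, DNAJA1, EIF2AK4 and SEC63 lost their calls with no filter, DNAJC1 and SEC63 with the probe set mean, and AMT with quantile normalization. Where these alternatives do not say so by their construction, the cause was not tested. With 3 samples a group, an uncalled gene is not shown to be unchanged, and values of probe sets under 4 have no usable order.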
